A study of Mus musculus with 6 samples.

Results

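The genes described here are 10 members of the Notch pathway: the receptor genes Notch1, Notch2 and Notch3, the ligand genes Dll1, Dll3 and Jag1, and the effector genes Hes1, Hes5, Hey1 and Nrarp. They were taken by symbol from a table of 54884 entries, in which each of the 10 had 1 entry. They were measured in neural stem cells of C57BL/6 mice, isolated from the hippocampus on embryonic day 14, grown in culture and used between passages 3 and 8. The sources used here do not give the passage of each library. In 3 control libraries the cells had been transduced with a lentivirus for a control siRNA, circCon, and in 3 libraries with a lentivirus for an siRNA against circHIPK2, a circular RNA made from the Hipk2 gene. Both groups therefore carry a lentivirus and an siRNA. Poly(A)-selected RNA was sequenced from both ends, and expression is given in FPKM, fragments per kilobase of transcript and per 1000000 mapped. No source says whether the 3 libraries of a group were separate cultures, so the tests compare the groups with a spread between libraries that may be only technical.

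Notch signalling passes between touching cells. A ligand of the Delta or Jagged type on one cell binds a Notch receptor on its neighbour, the receptor is cut by ADAM proteases and then by gamma-secretase, and its freed intracellular domain joins the DNA-binding protein Rbpj in the nucleus to switch on target genes. In neural stem cells the best known targets are the Hes and Hey genes, whose products are basic helix-loop-helix repressors that hold back proneural factors and keep cells undifferentiated, while cells that begin to differentiate make more Delta ligand. Nrarp encodes a small ankyrin-repeat protein that is induced by Notch and limits it by binding the intracellular domain.

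Dll3, Hes5 and Nrarp were the 3 members with the largest differences between the groups. The 250 bases before the annotated start of these 3 genes are printed to show whether they share the site that Rbpj is known to bind. They come from RefSeq, build GRCm38.p6, which is later than the build named for the deposited values. Each runs 5′ to 3′ on the strand of its gene. Capitals mark GTGGGAA on either strand, the high-affinity form of the Rbpj site, and CAGCTG, an E-box of the kind proneural factors bind. The windows lie at chr4:154960673-154960922 on the plus strand for Hes5, at chr2:25180508-25180757 on the plus strand for Nrarp and at chr7:28301786-28302035 on the minus strand for Dll3.
Hes5: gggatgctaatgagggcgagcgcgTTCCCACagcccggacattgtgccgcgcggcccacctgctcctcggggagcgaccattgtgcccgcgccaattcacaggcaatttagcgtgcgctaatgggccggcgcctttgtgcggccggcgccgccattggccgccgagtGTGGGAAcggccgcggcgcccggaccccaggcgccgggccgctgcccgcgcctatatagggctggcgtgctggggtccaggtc
Nrarp: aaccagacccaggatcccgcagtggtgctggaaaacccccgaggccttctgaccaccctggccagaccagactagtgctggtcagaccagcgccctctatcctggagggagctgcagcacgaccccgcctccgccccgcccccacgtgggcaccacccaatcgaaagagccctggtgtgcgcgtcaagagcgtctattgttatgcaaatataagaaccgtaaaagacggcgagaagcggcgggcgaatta
Dll3: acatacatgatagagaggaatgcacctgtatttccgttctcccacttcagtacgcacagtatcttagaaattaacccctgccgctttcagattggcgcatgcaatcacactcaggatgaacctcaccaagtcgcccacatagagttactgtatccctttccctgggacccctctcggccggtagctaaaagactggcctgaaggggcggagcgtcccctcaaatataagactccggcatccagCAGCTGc
Hes5 held 2 matches to GTGGGAA in opposite orientations, one from base 226 to base 220 and the other from base 83 to base 77 before the start. Nrarp and Dll3 held 0 matches to it, and Dll3 held 1 CAGCTG, from base 7 to base 2 before the start. GTGGGAA or its reverse complement was found in 5.42% and CAGCTG in 13% of 32851 RefSeq windows of the same length. Of the 10 members 8 had an entry in the promoter table, with 9 windows in all because Dll1 had 2 start sites. Hes1 and Hey1 had none. Among the other windows, those of Jag1 and of 1 Dll1 start held 1 CAGCTG each, and none held GTGGGAA. The shorter core TGGGAA, which lies inside GTGGGAA, was found in 21.6% of all windows and among the members only within the 2 Hes5 matches. A match to these letters is a description of the window, not a measured binding site.

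The step size of low values put the depth of the libraries at 18320000 to 21750000 fragments, and 1 fragment of a 1 kb transcript was then worth 0.046 to 0.0546 FPKM. The neural stem cell label was checked against 8 markers, which summed to 1889 to 2432 FPKM in the controls and 1718 to 2166 FPKM with circHIPK2 siRNA. Of the 7 that could be tested, 0 were called and 1 lay entirely lower with the siRNA, against 22.1% of all entries tested. The most abundant, the radial glia lipid carrier Fabp7, was the 1 marker whose siRNA libraries all lay below the controls, with means of 1206 ± 307 and 755 ± 148 FPKM and a log2 fold change of −0.66 (limma, Benjamini-Hochberg adjusted p = 0.211). The groups overlapped for the others, among them Vim, at 507 ± 111 and 626 ± 33.1 FPKM, Sox2, at 98.0 ± 16.8 and 105 ± 13.4 FPKM, and Nes, at 77.2 ± 11.5 and 71.0 ± 6.99 FPKM (SD, n = 3 each). Genes of the oligodendrocyte lineage and of astrocytes were also measured at high levels, with Olig2 at 242 ± 19.0 and 203 ± 18.2 FPKM and Gfap at 109 ± 62.1 and 186 ± 91.6 FPKM. Of the 6 tested markers on each of these 2 lists 0 were called, and the groups overlapped for every one. The other astrocyte markers had means that were lower with the siRNA for Aldh1l1, S100b, Slc1a2 and Gjb6, such as 58.5 ± 8.05 and 52.7 ± 8.46 FPKM for Aldh1l1, and 11.0 ± 5.20 and 11.9 ± 3.99 FPKM for Aqp4. Vascular cells also use Notch1, Notch3, Jag1 and Hey1. Their markers were near 0: all 6 endothelial and all 6 mural markers had means under 1 FPKM, and the lists summed to at most 0.473 and 1.36 FPKM in a library. A difference between the groups was present outside the Notch genes. A set of 9 entries of the ribosomal RNA locus, or higher together with it, took 0.321% to 0.58% of all FPKM in the controls and 11.5%, 3.24% and 19.9% in siRNA libraries 1 to 3. Entries taken for being higher were picked on these same data, so the contrast is partly fixed by that choice. The rescaling of the columns without the 9 entries rests on the same set. The 8 liver transcripts, picked with earlier results of these data known, summed to 34.9 to 57.4 FPKM in the controls and to 2.08 to 2.21 FPKM with the siRNA. All 8 were called lower and are among the 19 entries called lower of the 13702 tested. The part of the liver transcripts in the results on the Notch genes was not tested. That of the ribosomal RNA locus entries was not tested beyond fits on columns rescaled without them.

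The comparison asks which transcripts differ between cells given the siRNA against circHIPK2 and the controls. Whether the level of circHIPK2 itself was lowered was not examined here. Of the 10 members 1 was called lower and 0 higher, against 0.139% lower and 0.117% higher of the 13702 entries tested (limma with Benjamini-Hochberg adjustment, called at an adjusted p below 0.05). At an unadjusted p below 0.05, 3 members were lower and 0 higher, against 15.5% and 1.83% of all entries. All 10 members passed the filter of a mean of at least 1 FPKM over the 6 libraries. The member called was the ligand gene Dll3, and the effector genes Hes5 and Nrarp had siRNA means lower by a similar factor but missed the threshold. The 3 receptor genes, the other 2 ligand genes and the effector genes Hes1 and Hey1 had log2 fold changes between −0.20 and 0.14, none past the threshold. Log2 fold changes are on the log2(FPKM + 1) scale, siRNA minus control. The median over all entries tested was −0.12, and over the 10 members it was −0.13.

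**Figure D1:**
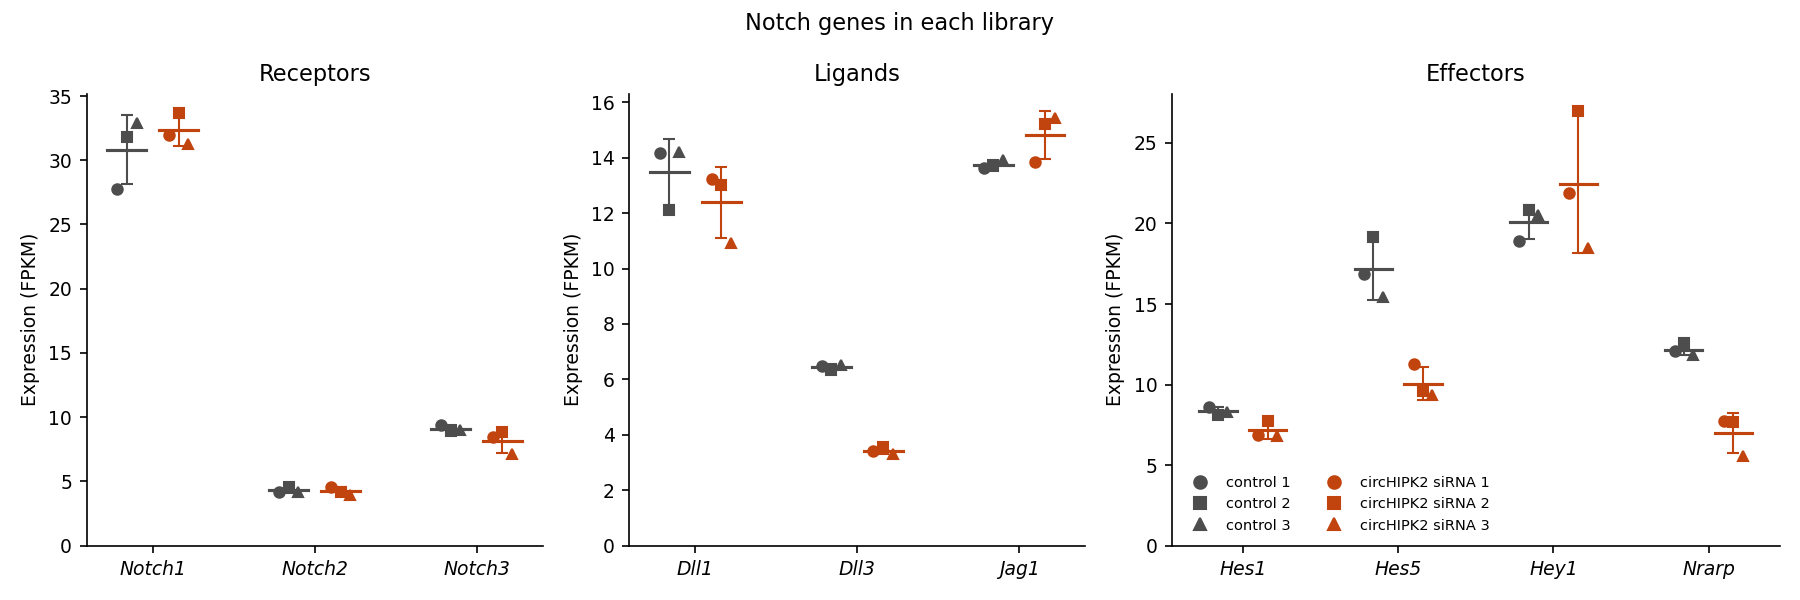
FPKM of the 3 receptor, 3 ligand and 4 effector genes in each of the 6 libraries. Symbols are single libraries (grey, control; orange, circHIPK2 siRNA), the horizontal line is the group mean and the error bar 1 SD (n = 3). The 2 groups lie apart for Dll3, Hes5 and Nrarp, and overlap or nearly touch for the other genes.

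The receptor genes had similar levels in both groups. Notch1, the main receptor of embryonic neural progenitors, had 27.8, 31.8 and 32.9 FPKM in the controls and 32.0, 33.7 and 31.3 FPKM with the siRNA, in the order of libraries 1 to 3 used throughout. Its groups overlapped, with control library 1 the lowest of the 6, and the log2 fold change was 0.07 (95% interval −0.16 to 0.29; limma, Benjamini-Hochberg adjusted p = 0.721). Notch2, a receptor with a structure close to that of Notch1, had 4.19, 4.61 and 4.16 FPKM in the controls and 4.56, 4.15 and 3.94 FPKM with the siRNA. Its groups overlapped and the log2 fold change was −0.03 (95% interval −0.26 to 0.20), a sign that turned under median-of-ratios and quantile scaling. Notch3, which is known from vascular smooth muscle and also from neural stem cells, had 9.40, 8.94 and 9.02 FPKM in the controls and 8.45, 8.85 and 7.13 FPKM with the siRNA. Its siRNA libraries all lay below the controls, the closest being siRNA library 2 and control library 2, and its log2 fold change was −0.15 (95% interval −0.39 to 0.09; limma, Benjamini-Hochberg adjusted p = 0.452). That sign turned when the columns were rescaled without the ribosomal RNA locus entries. The fourth receptor gene of the mouse, Notch4, was below the filter at 0.14 and 0.0791 FPKM. On the values as deposited, the intervals of the 3 receptors did not reach the log2 fold change of −0.75 seen for Dll3. They rest on a spread between libraries that may be only technical, and they depend on the scaling. With the columns rescaled without the ribosomal RNA locus entries, the log2 fold change of Notch1 was 0.27. A p that misses the threshold does not show that the levels of the receptors were the same.

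Among the ligand genes Dll3 fell. Dll3 is a divergent Delta ligand that does not activate receptors on neighbouring cells and is known mainly for inhibiting Notch within the cell that makes it. It had 6.48, 6.35 and 6.53 FPKM in the controls and 3.41, 3.56 and 3.30 FPKM with the siRNA. The groups were far apart against their spread, and the libraries within each were nearly equal (SD 0.0921 and 0.132 FPKM). The fold between the means was 1.88, with a log2 fold change of −0.75 (SE 0.09; 95% interval −0.96 to −0.54; limma, Benjamini-Hochberg adjusted p = 0.0154). By unadjusted p it ranked 21 among the 13702 entries. On its longest coding transcript in GENCODE M21, of 2618 nt, these values correspond to about 163 to 363 fragments per library, so counting error alone is at most about 7.83% of a value. The size of the difference held when any 1 library was left out, with log2 fold changes from −0.78 to −0.73, but in all 6 such fits the adjusted p lay between 0.0515 and 0.0829 (limma with Benjamini-Hochberg adjustment), just above the threshold. With the columns rescaled without the ribosomal RNA locus entries it was −0.65 (adjusted p = 0.0764).

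Dll1 and Jag1, the ligand genes that activate receptors on neighbouring cells, did not pass. Dll1, the Delta ligand of differentiating progenitors, had 14.2, 12.1 and 14.2 FPKM in the controls and 13.2, 13.0 and 10.9 FPKM with the siRNA. The groups overlapped, and its log2 fold change of −0.12 (95% interval −0.37 to 0.14; limma, Benjamini-Hochberg adjusted p = 0.587) was that of the median entry. Under median-of-ratios and quantile scaling, and without the ribosomal RNA locus entries, its sign turned. Jag1, a ligand of the Jagged type, had 13.6, 13.7 and 13.9 FPKM in the controls and 13.8, 15.2 and 15.4 FPKM with the siRNA. Its siRNA library 1 lay among the controls and the other 2 above them, with a log2 fold change of 0.10 (95% interval −0.10 to 0.31). The other ligand genes of this type, Dll4 and Jag2, had means of 0.0999 and 0.38 FPKM or less in each group, below the filter.

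Among the effector genes, Hes5 and Nrarp had the largest differences. Whether they differ from Hes1 and Hey1 in their response was not tested. Hes5, a repressor gene that in the developing brain marks progenitors with active Notch, had 16.9, 19.2 and 15.4 FPKM in the controls and 11.3, 9.58 and 9.34 FPKM with the siRNA. Nrarp, the feedback inhibitor, had 12.1, 12.5 and 11.9 FPKM in the controls and 7.76, 7.68 and 5.58 FPKM with the siRNA. For both genes every siRNA library lay below every control, and siRNA library 3 was the lowest.

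Hes5 averaged 17.2 ± 1.89 and 10.1 ± 1.05 FPKM (SD, n = 3 each), a 1.70-fold difference, with a log2 fold change of −0.71 (95% interval −0.98 to −0.45; limma, Benjamini-Hochberg adjusted p = 0.0666). Nrarp averaged 12.2 ± 0.353 and 7.01 ± 1.24 FPKM, a 1.74-fold difference, with a log2 fold change of −0.73 (95% interval −1.02 to −0.44; limma, Benjamini-Hochberg adjusted p = 0.0844). By unadjusted p they ranked 41 and 54 of 13702. With the columns rescaled without the ribosomal RNA locus entries both differences were smaller. The log2 fold changes were then −0.54 for Hes5 and −0.58 for Nrarp (limma, Benjamini-Hochberg adjusted p = 0.17 and 0.103). Both missed the threshold with every setting tried but one: with libraries weighted by their estimated quality, Hes5 had an adjusted p of 0.0371 and Nrarp one of 0.0328 (limma with Benjamini-Hochberg adjustment), in a fit that called 1.93% of all entries lower. In that fit siRNA library 1 had a weight of 2.5 and siRNA library 3 one of 0.507.

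Each of these 2 genes overlaps an entry annotated on the opposite strand in GENCODE M21, and use of strand in the counting is not stated, so reads in the overlap cannot be assigned. Gm20421, opposite Hes5, had means of 3.67 and 2.09 FPKM, and Gm38287, opposite Nrarp, 5.11 and 3.42 FPKM, in controls and with the siRNA. Both were lower in every siRNA library than in every control, as were their partners, and neither passed the threshold. Notch1, Notch3 and Dll1 also overlap entries on the opposite strand, and Notch2 overlaps one on its own strand. The most abundant of these was 0610009E02Rik, opposite Notch1, with means of 7.79 and 7.58 FPKM in controls and with the siRNA. Dll3, Jag1, Hes1 and Hey1 overlapped no exon of another annotated gene.

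The other effector genes were Hes1 and Hey1. Hes1, a repressor gene that oscillates in neural progenitors, had 8.63, 8.11 and 8.27 FPKM in the controls and 6.89, 7.75 and 6.82 FPKM with the siRNA. Its siRNA libraries all lay below the controls, yet the log2 fold change was only −0.20 (95% interval −0.41 to 0.02; limma, Benjamini-Hochberg adjusted p = 0.318), and it was −0.014 without the ribosomal RNA locus entries. Hey1, a related repressor gene, had 18.9, 20.8 and 20.5 FPKM in the controls and 21.9, 27.0 and 18.5 FPKM with the siRNA. Its siRNA libraries spread around the controls, with library 2 the highest and library 3 the lowest of the 6, and its log2 fold change was 0.14 (95% interval −0.17 to 0.45). Leaving out siRNA library 2 brought it to 0.0037, and leaving out siRNA library 3 to 0.27 (limma, Benjamini-Hochberg adjusted p = 0.986 and 0.442).

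**Figure D2:**
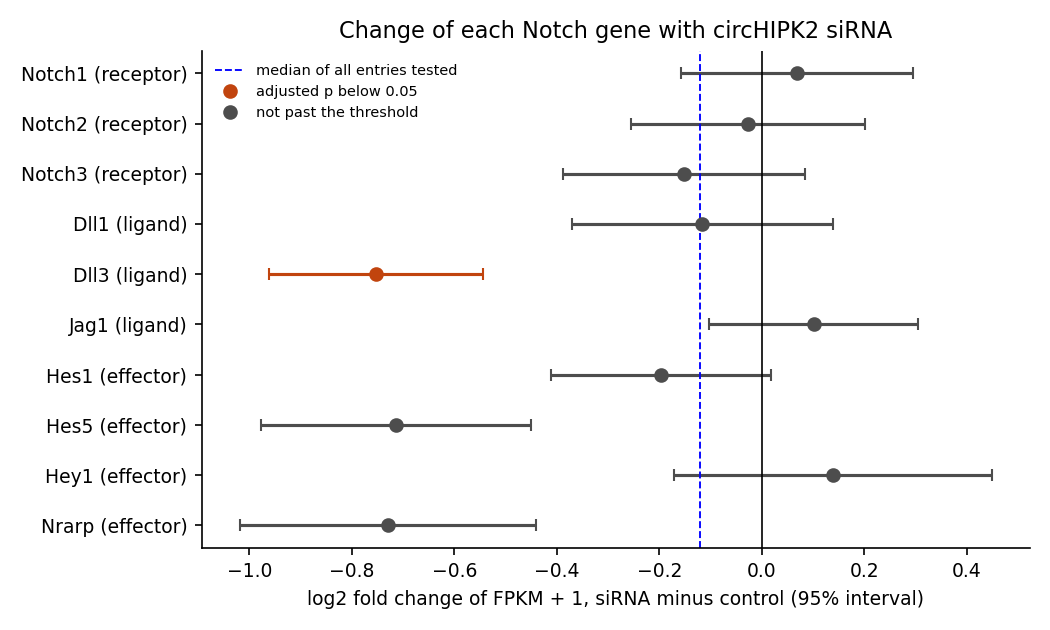
Log2 fold change of FPKM + 1, circHIPK2 siRNA minus control, for each of the 10 genes with its 95% interval from limma (3 libraries per group). The dashed line is the median of all entries tested, −0.12. The intervals of Dll3, Hes5 and Nrarp lie below those of the other 7 members, and the orange point, Dll3, is past the threshold after adjustment over all entries.

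Because a share within a library does not change with the scaling of that library, each member was also expressed as a percentage of the summed FPKM of its role group. Exact two-sided permutation tests of 3 against 3 libraries cannot go below p = 0.1, and the shares of a role group add up to the whole, so one that is lower makes others higher. Dll3 made up 18.9%, 19.7% and 18.8% of the ligand FPKM in the controls and 11.2%, 11.2% and 11.1% with the siRNA. Its siRNA libraries were nearly equal (SD 0.0405 percentage points). Jag1 took 39.7%, 42.6% and 40.2% in the controls and 45.4%, 47.8% and 52.0% with the siRNA, while the share of Dll1 overlapped between the groups, with means of 40.0% and 40.4%.

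Within the effectors, Hes5 made up 29.9%, 31.6% and 27.5% in the controls and 23.6%, 18.4% and 23.2% with the siRNA. Nrarp averaged 21.1% ± 0.363 and 15.0% ± 1.19 (SD, n = 3 each). Hey1, the most abundant effector, took 33.4%, 34.4% and 36.6% in the controls and 45.8%, 51.9% and 45.9% with the siRNA, so that it made up nearly as much as the other 3 effectors together. The share of Hes1 overlapped, at 14.5% ± 0.983 and 15.4% ± 1.35 (SD, n = 3 each). For Dll3, Jag1, Hes5, Hey1, Nrarp and Notch3 the groups did not overlap, which gave the smallest possible exact permutation p of 0.1 (0.167 adjusted over the 10 shares). Notch1 held 69.6% ± 2.16 and 72.4% ± 1.41 of the receptor FPKM (exact permutation p = 0.2, n = 3 each).

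**Figure D3:**
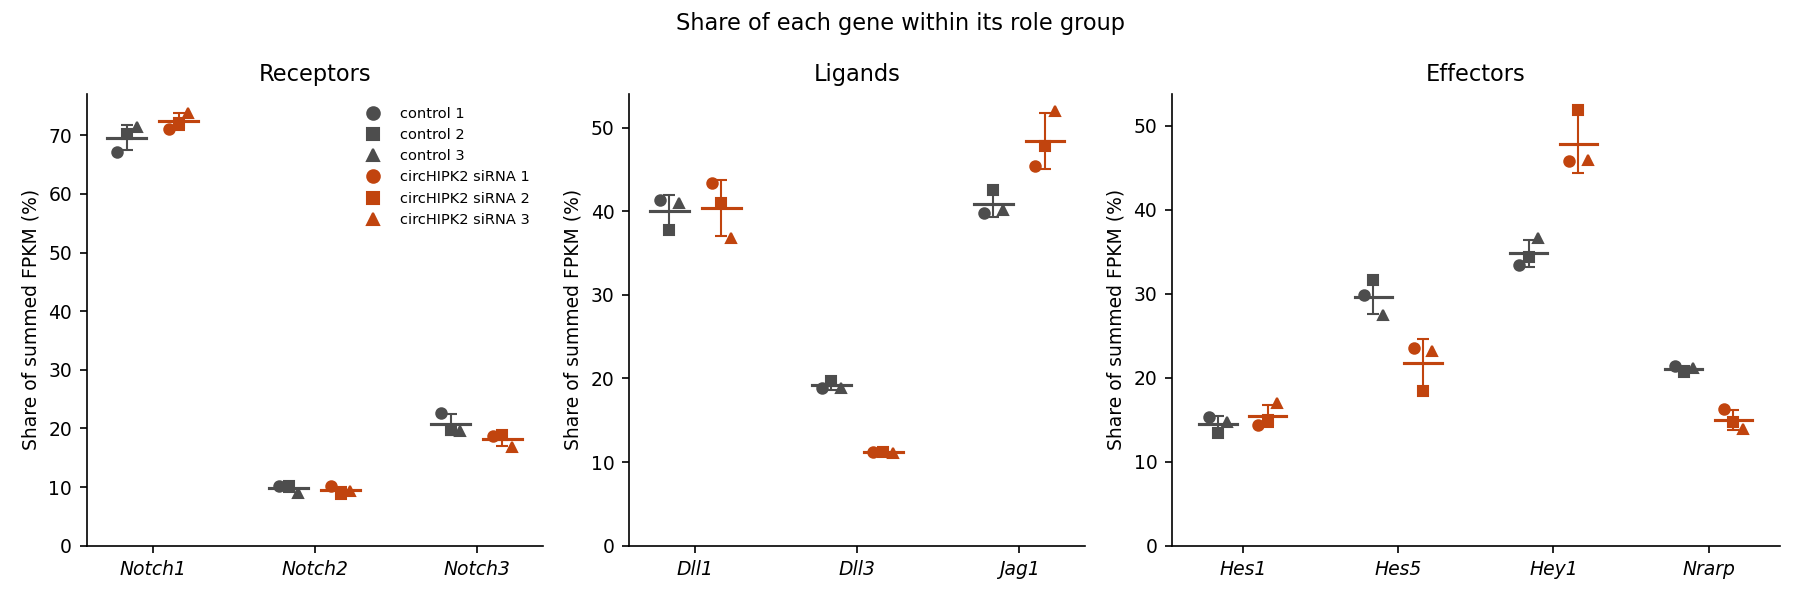
Share of each gene in the summed FPKM of its role group, in percent, for each of the 6 libraries (grey, control; orange, circHIPK2 siRNA), with the group mean as a line and 1 SD as the error bar (n = 3). Dll3 averaged 19.2% of the ligands in the controls and 11.2% with the siRNA, and Hey1 34.8% and 47.9% of the effectors.

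FPKM is per length of transcript, so levels can be ordered between genes. In the controls the order was Notch1, Hey1, Hes5, Jag1, Dll1, Nrarp, Notch3, Hes1, Dll3 and Notch2, from a mean of 30.8 FPKM to one of 4.32 FPKM. Neighbours whose libraries overlapped were Hey1 with Hes5, Jag1 with Dll1 and Dll1 with Nrarp. With the siRNA the order was Notch1, Hey1, Jag1, Dll1, Hes5, Notch3, Hes1, Nrarp, Notch2 and Dll3, from 32.3 FPKM to 3.42 FPKM. There the overlapping neighbours were Dll1 with Hes5, Notch3 with Hes1 and Hes1 with Nrarp. Hes5 and Nrarp each stood 2 places lower in that order, and Dll3 changed places with Notch2.

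On the values as deposited, 5 of 10 members had all siRNA libraries below all controls (Notch3, Dll3, Hes1, Hes5 and Nrarp) and 0 had them above, against 22.1% and 2.65% of all entries tested. This division of directions depends on the scaling, which moves the median of all entries from −0.12 to −0.0012 with median-of-ratios factors. With that scaling 4 members lay entirely lower (Dll3, Hes1, Hes5 and Nrarp) and 3 entirely higher (Notch1, Jag1 and Hey1), against 10.1% of all entries in each direction. With the columns rescaled without the ribosomal RNA locus entries 3 lay entirely lower, namely Dll3, Hes5 and Nrarp, and the same 3 genes entirely higher, against 4.29% and 14% of all entries. Dll3, Hes5 and Nrarp thus stayed lower and apart under the scalings named here and under quantile normalization, where 4 members lay entirely lower and 3 entirely higher against 9.62% and 9.73% of all entries.

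**Figure D4:**
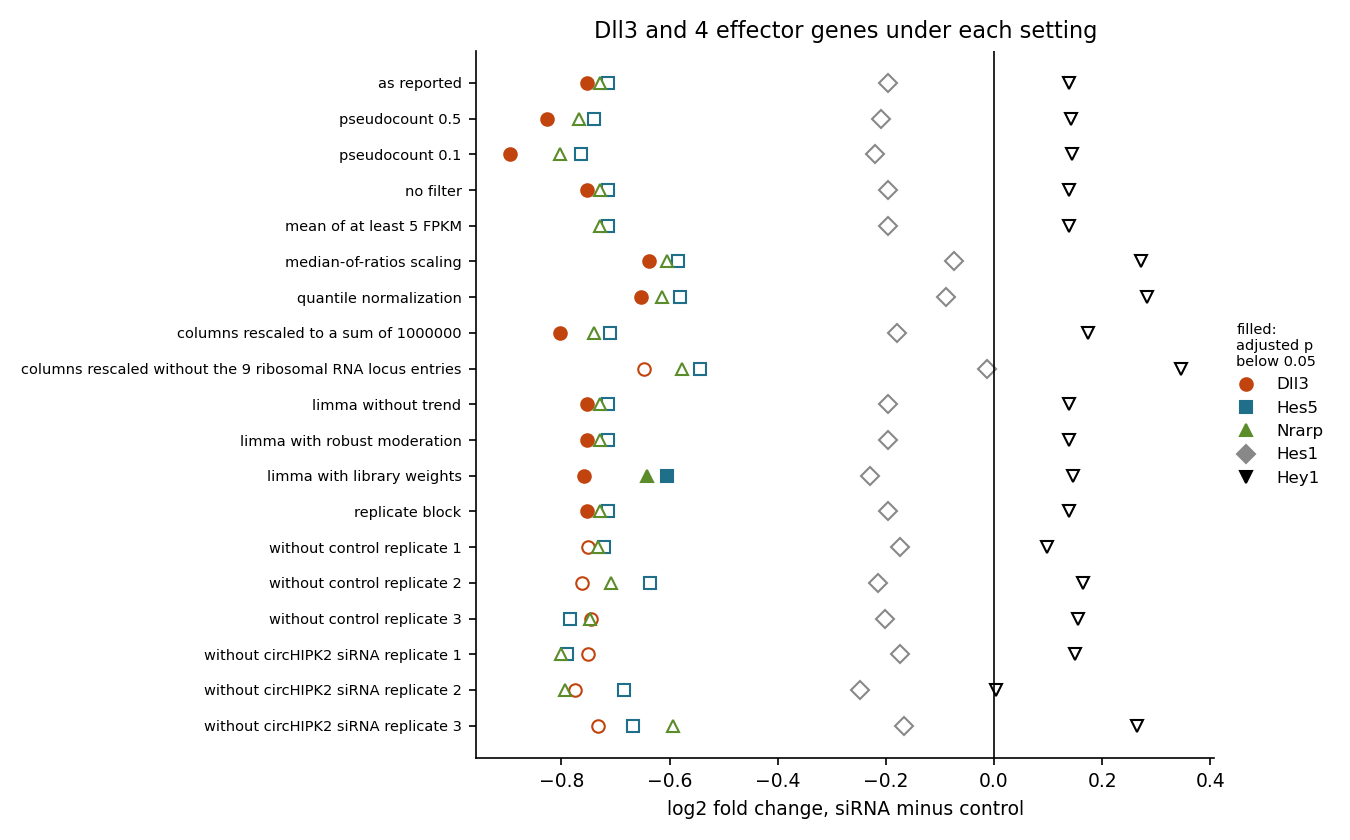
Log2 fold change, circHIPK2 siRNA minus control, of Dll3 and the 4 effector genes with each setting (rows). Filled symbols have an adjusted p below 0.05 in that fit. Dll3, Hes5 and Nrarp stay between −0.90 and −0.54, Hes1 between −0.25 and −0.01, and Hey1 at or above 0.0037.

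The other genes of the pathway were taken from 8 lists with 72 genes, all of which had an entry and 54 of which were tested. None was called in either direction. Without adjustment, 12 had p below 0.05 and were lower and 1 was higher, which is 1 of 54 against 1.83% of all entries and 12 of 54 against 15.5%. The libraries of 14 lay entirely lower and of 1 entirely higher, against 22.1% and 2.65%. Their median log2 fold change was −0.09, against −0.12 for all entries.

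Upstream of the receptors, the list of other receptors and ligands had 1 tested gene of 6. This was Dner, a membrane protein with Delta-like repeats described as a Notch ligand of neurons and glia, at 41.0, 41.0 and 36.0 FPKM in the controls and 25.6, 29.0 and 22.4 FPKM with the siRNA. All its siRNA libraries lay below the controls, and its log2 fold change of −0.60 (SE 0.12; limma, Benjamini-Hochberg adjusted p = 0.111) came closest to those of Dll3, Hes5 and Nrarp among the pathway genes. It passed with weighted libraries (limma, Benjamini-Hochberg adjusted p = 0.0328). Of the 5 tested genes for ligand ubiquitination and endocytosis, the step that lets a ligand pull on its receptor, 0 were called, and Epn1, an epsin endocytic adaptor and the most abundant, had 60.2 ± 0.64 and 51.1 ± 3.77 FPKM.

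For the handling of the receptors, 0 of 5 genes for glycosylation, 0 of 9 for cleavage and 0 of 10 for turnover were called. Lfng, a fringe glycosyltransferase that alters which ligands a receptor answers, had 76.6 ± 1.44 and 73.9 ± 3.19 FPKM. Ncstn, the nicastrin subunit of gamma-secretase, had 32.5 ± 2.11 and 25.8 ± 3.10 FPKM with an adjusted p of 0.218, and Nedd4, a ubiquitin ligase of many membrane proteins, had 81.5 ± 1.54 and 74.7 ± 5.13 FPKM with an adjusted p of 0.492 (SD, n = 3 each; limma with Benjamini-Hochberg adjustment). The cleavage list had a median log2 fold change of −0.21, the glycosylation list one of −0.05 and the turnover list one of −0.10.

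In the nucleus, 0 of 17 tested genes of the Notch transcription complex and its corepressors were called, with a median of −0.02. Rbpj, named here for its role although outside the naming rule, had 10.2, 9.39 and 9.21 FPKM in the controls and 6.73, 9.21 and 7.19 FPKM with the siRNA. Its groups met at siRNA library 2 and control library 3, which were equal to 3 digits, and its log2 fold change was −0.29 (limma, Benjamini-Hochberg adjusted p = 0.276). Of the other Hes and Hey genes, 2 of 6 were tested and 0 called. Hes6, which is known to oppose Hes1, had 40.0 ± 2.22 and 36.3 ± 2.90 FPKM.

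Dll1 and Dll3 are known to be induced by proneural factors, and 5 of 11 genes on the list of these factors and their targets were tested, with 0 called. Gadd45g, a growth arrest gene picked with its values known, averaged 15.1 ± 2.81 and 21.1 ± 2.02 FPKM (limma, Benjamini-Hochberg adjusted p = 0.191). Neurog1, Neurog2, Neurod1, Neurod4 and Insm1 were below the filter. Dll3 is known from differentiating cells, so neuron markers were set beside it. The 6 of them summed to 119 to 129 FPKM in the controls and 92.5 to 104 FPKM with the siRNA. Of the 4 that were tested 0 were called. On the values as deposited, the only ones compared for these markers, 22.1% of all entries tested had every siRNA library below every control. So did 3 of the 4 markers. These were Map2, which made up most of the sum, at 109 ± 5.12 and 89.0 ± 4.47 FPKM, Tubb3, at 8.12 ± 0.693 and 5.51 ± 0.792 FPKM, and Snap25, at 3.59 ± 0.288 and 2.52 ± 0.596 FPKM (SD, n = 3 each). Their adjusted p-values were 0.209, 0.155 and 0.229 (limma with Benjamini-Hochberg adjustment). Dcx overlapped, at 1.19 ± 0.563 and 0.878 ± 0.46 FPKM. Stmn2 and Rbfox3 had means under 0.26 FPKM in both groups and were below the filter. Their means were higher with the siRNA, at 0.0264 and 0.0491 FPKM for Stmn2 and 0.195 and 0.258 FPKM for Rbfox3. The part of such cells in the level of Dll3 was not tested, and in bulk RNA fewer cells of a type and less RNA per cell cannot be told apart.

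**Figure D5:**
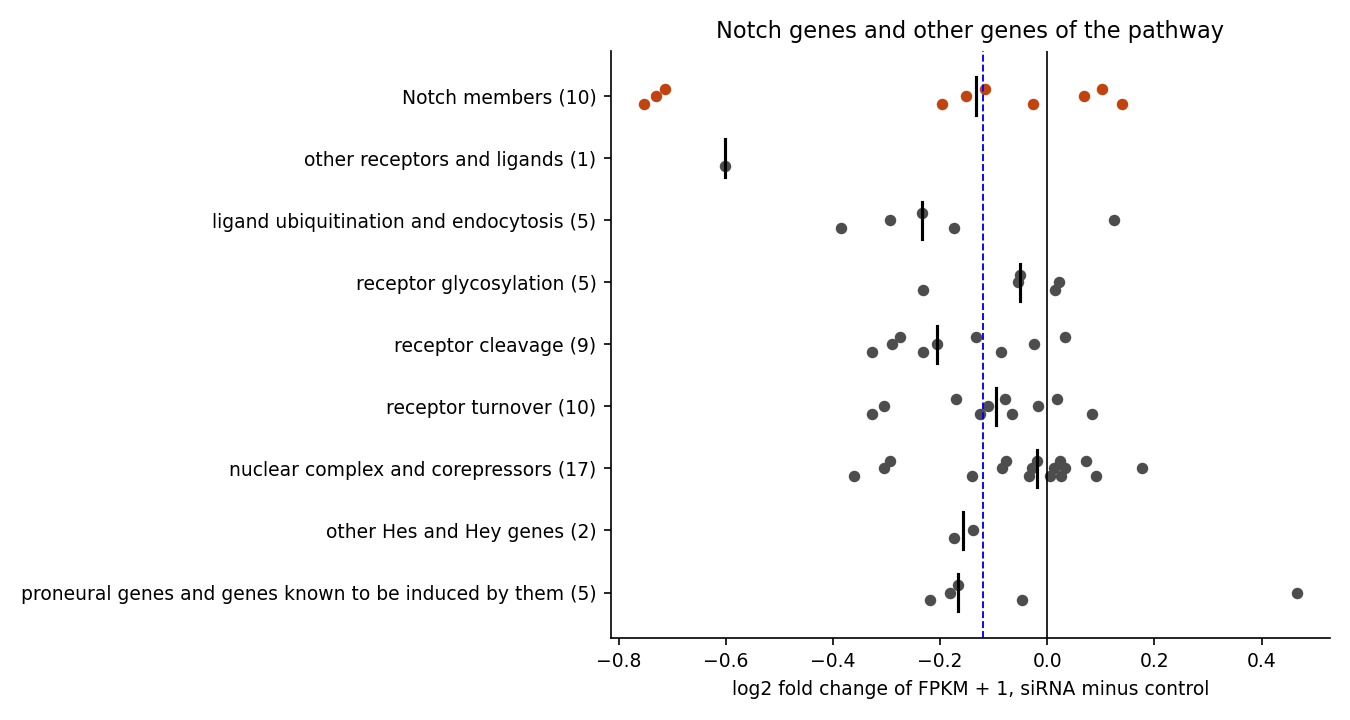
Log2 fold change of FPKM + 1, circHIPK2 siRNA minus control, of the 10 members (orange) and of the 54 tested genes of 8 pathway lists (grey), 1 point per gene, with the number of genes in parentheses. Black bars are list medians and the dashed line is the median of all entries tested. Dll3, Nrarp and Hes5 lie lowest, at −0.75, −0.73 and −0.71, followed by Dner at −0.60.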

How the data were processed

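Messenger RNA was measured in 6 libraries, 3 per group, assigned to groups by the sample titles. The authors deposited FPKM values per gene symbol, 1 column per library. The submitters' processing notes name the tools HISAT, StringTie and edgeR and the build mm9. The sources used here give no versions, annotation, use of strand or use of the molecular identifiers in the adapters.

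A filter kept the 13702 entries whose mean reached 1 FPKM. The groups were tested on log2(FPKM + 1) using limma 3.58.1 (R 4.3.3), two-sided, with a mean-variance trend and no replicate block, and p-values were adjusted over all of these entries by the Benjamini-Hochberg method. The pseudocount of 1 understates the change of low genes. Folds are ratios of mean FPKM, and a standard error is that of the moderated fit. Shares were compared with exact permutation tests (SciPy 1.17.1). The script was tested on simulated data.

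Depth was read from the low values of genes with 1 GENCODE M21 transcript of at least 500 nt. It was taken as the step that brought these values closest to whole multiples, scored by a mean cosine. The search ran between 10000000 and 30000000 fragments. Between 35.3% and 39.8% of these values lay within 0.05 of a whole multiple, against 10% by chance, so depth and the fragment numbers from it are approximate and cover counting error only. Promoter windows, motifs and overlaps come from RefSeq and GENCODE on GRCm38 and were not joined to mm9 coordinates.

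The members, lists and tests were chosen with earlier results of these data known. Named were all members and, per pathway list, every gene called or otherwise the one with the highest mean. Other names are marked, or are given with a level only. Not every gene taken by this rule is reported here.

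Same-numbered control and siRNA libraries had deviations from their group means that correlated at 0.046, 0.0152 and 0.133. Between libraries with different numbers the correlations ran from −0.166 to 0.117. These values do not settle whether the numbers pair the libraries. The labels do not say what the numbers mark, so the main fit took no pairing. Alternatives were pseudocounts, filters, scalings, limma options, the replicate block and leaving out each library.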

Additional observations from a re-analysis of the deposited data

How the results depend on the processing

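Of 178 refits of the member fold changes, 158 kept their direction and their side of the threshold, 11 changed sign, 7 lost and 2 gained a call. No sign change was in Dll3, Jag1, Hes1, Hes5, Hey1 or Nrarp. Notch2 changed sign with median-of-ratios factors (0.085), quantiles (0.070), a rescaling of the columns without the 9 ribosomal RNA locus entries (0.16) and library weights (0.039), Dll1 with the first 3 of these (0.013, 0.017 and 0.080), and Notch3 with the rescaling (0.036). Dll3 lost its call with the rescaling (−0.65). Hes5 (−0.60) and Nrarp (−0.64) gained one with library weights. The cause was not tested. Leaving out 1 library gave ranges of −0.0015 to 0.12 for Notch1, −0.074 to 0.011 for Notch2 and −0.78 to −0.73 for Dll3, whose call was lost in all 6 such fits, each with fewer libraries. Of 70 recomputed shares 68 kept their direction, and the share of Dll1 ran from −1.12 to 2.16 percentage points.

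Members called lower were 1 as reported, 0 in each fit without 1 library, 0 with the rescaling, 0 with a minimum mean of 5 FPKM, at which Dll3 and Notch2 were not tested, and 3 with library weights, which also called 1 pathway gene, Dner. Over all entries 16 were higher and 19 lower. There were 3 and 11 with median-of-ratios scaling, 6 and 13 with quantile normalization, 7 higher with no filter, 8 higher with robust moderation, 8 lower with a minimum mean of 5 FPKM, and 55 and 265 with library weights. Leaving out 1 library gave 2 to 15 higher and 6 to 23 lower, the fewest without siRNA library 3.

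The replicate block called 23 entries higher and 23 lower. With the block Dll3 kept its call (−0.75, limma, Benjamini-Hochberg adjusted p = 0.0431), and Hes5 (adjusted p = 0.0739) and Nrarp (adjusted p = 0.0714) stayed uncalled. The numbers may mark nothing shared by the libraries.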
